A study of Homo sapiens with 8 samples.

Results

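The genes described here encode the classical MHC class II molecules, their peptide editor and the factors that make and escort them. They were taken by symbol from the deposited gene table, as CIITA, CD74, HLA-DRA, HLA-DRB1, HLA-DPA1, HLA-DPB1, HLA-DQA1, HLA-DQB1, HLA-DMA and HLA-DMB. All 10 were found among 60710 genes in the table, and all 10 were among the 16186 genes with enough counts to be tested. They were measured by sequencing of polyadenylated RNA in A375, an established human metastatic melanoma cell line. NT cells were seeded and left without TNF, and TNF-treated cells received 50 ng/mL human recombinant TNF for 24 h from the day after seeding. There were 4 libraries per group, from 4 independent experiments whose dates gave the replicate numbers 1 to 4. Statements on single experiments and on the date as a block use the dates in the column names of the series table.

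MHC class II molecules are pairs of an alpha and a beta chain that present peptides from the endosomal pathway to CD4+ T cells. In the endoplasmic reticulum the pairs assemble on the invariant chain, encoded by CD74, which blocks their groove until cathepsins degrade it and HLA-DM exchanges the last fragment, CLIP, for peptide. Transcription of the whole group depends on the transactivator CIITA, which binds no DNA itself and docks on RFX, CREB and NF-Y proteins bound to the X and Y boxes of class II promoters. Professional antigen-presenting cells express the group constitutively, most other cells after interferon-gamma, and many melanomas without such a stimulus.

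With TNF, the class II genes of A375 cells did not move together. CD74 rose, to 1.397 times the NT level (95% interval 1.21 to 1.61), while HLA-DRA, HLA-DPA1, HLA-DMA and HLA-DMB fell, with log2 fold changes between -0.79 and -0.42 (edgeR quasi-likelihood test, adjusted p at most 0.00636). CIITA, HLA-DRB1, HLA-DPB1, HLA-DQA1 and HLA-DQB1 did not pass an adjusted p of 0.05. Thus 1 of 10 genes was higher and 4 of 10 were lower, where over all 16186 genes 14.5% were higher and 9.90% were lower. The median log2 fold change was -0.29 over the 10 genes and -0.0035 over all genes. In bulk RNA, fewer expressing cells and less RNA per cell cannot be told apart. Levels are in CPM, counts scaled to library size. With upper-quartile factors the split over all genes was 2045 higher and 2196 lower, and with library totals alone 1925 higher and 2514 lower, against 2345 and 1603 with the TMM factors used here, and the directions of the 10 genes were the same under each.

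**Figure D1:**
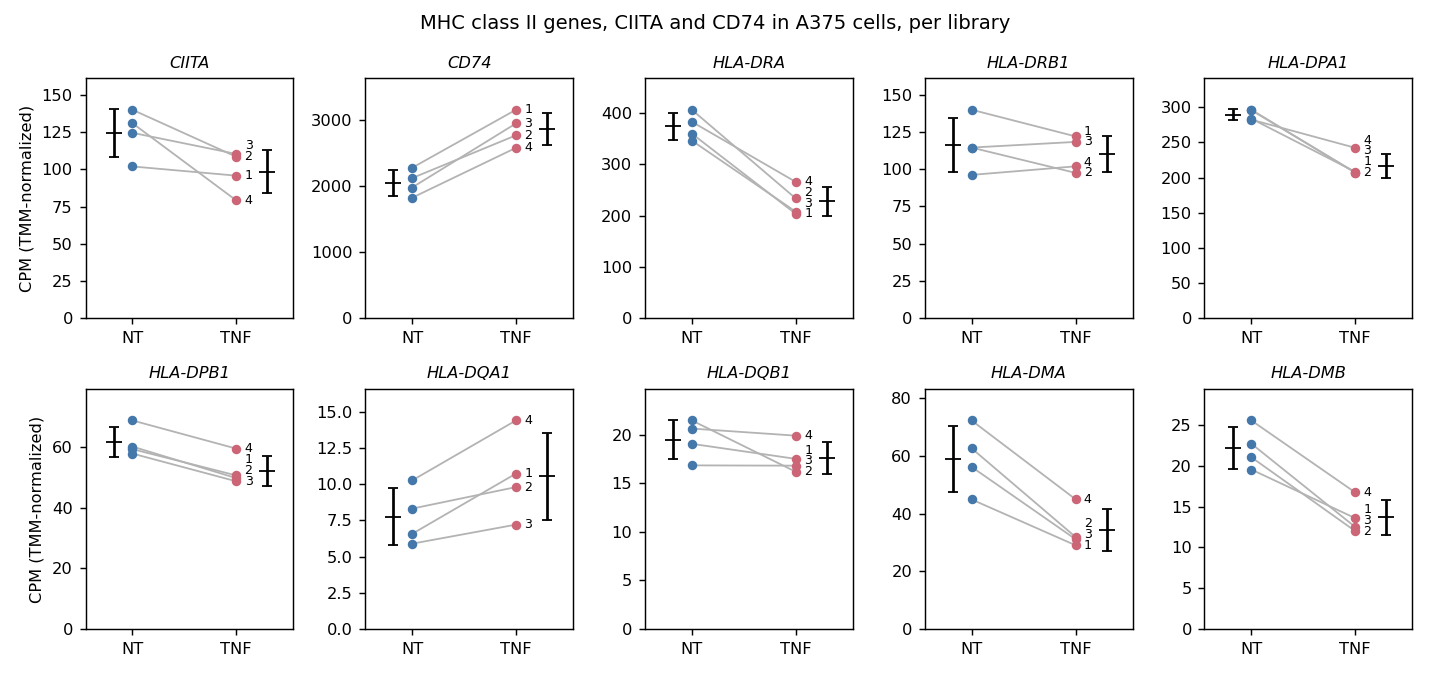
Expression of the 10 genes in each library, in TMM-normalized CPM (counts scaled to library size) from 0. Blue points are NT and red points TNF-treated libraries, grey lines join libraries of the same experiment (numbered), and black marks are the mean ± SD of 4 libraries. CD74 was higher in every experiment, and HLA-DRA, HLA-DPA1, HLA-DMA and HLA-DMB were lower in every experiment.

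Gene positions are given on GRCh38 from GENCODE release 44. CIITA (ENSG00000179583.20) lies on chromosome 16 at chr16:10866222-10943021 on the plus strand, with 20 exons in its canonical transcript. CD74 lies at chr5:150401637-150412969 on the minus strand, with 9 exons. The HLA genes all lie in the class II region of chromosome 6, between the start of HLA-DRA at 32439878 and the end of HLA-DPB1 at 33089696. The alpha and beta genes of the DP pair overlap there in opposite directions, HLA-DPA1 at chr6:33064569-33080775 on the minus strand and HLA-DPB1 at chr6:33075990-33089696 on the plus strand. The library kit kept strand, but the setting used in counting is not given in the sources used here, so reads of the overlap may have been shared between them.

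To show the promoters on which the group's shared regulation rests, the reference stretch from base -150 to -26 before the RefSeq start site is printed for the gene that rose, for HLA-DRB1, which did not pass the test, and for both HLA-DM genes, which fell (RefSeq, GRCh38.p14, each on its own minus strand, 5′ to 3′). Capitals mark letters of the X box (CTGATGATG, chosen after looking at these promoters) and of the core of the Y box, the CCAAT site of NF-Y (ATTGG on either strand). The stretches are chr5:150412936-150413060 for CD74, chr6:32589874-32589998 for HLA-DRB1, chr6:32953123-32953247 for HLA-DMA and chr6:32941054-32941178 for HLA-DMB.
CD74: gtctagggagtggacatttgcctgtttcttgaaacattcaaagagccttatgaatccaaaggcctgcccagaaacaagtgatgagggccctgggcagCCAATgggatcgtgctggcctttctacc
HLA-DRB1: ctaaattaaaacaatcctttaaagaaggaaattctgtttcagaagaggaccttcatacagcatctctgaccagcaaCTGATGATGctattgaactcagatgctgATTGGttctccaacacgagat
HLA-DMA: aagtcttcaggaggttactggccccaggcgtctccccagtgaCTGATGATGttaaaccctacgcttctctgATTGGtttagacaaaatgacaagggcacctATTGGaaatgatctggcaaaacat
HLA-DMB: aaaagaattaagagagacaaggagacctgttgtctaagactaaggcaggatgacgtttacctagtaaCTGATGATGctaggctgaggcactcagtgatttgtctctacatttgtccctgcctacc

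Within 250 bases before the start site, the Y box letters occurred in 32.0% of 35116 human promoters and the X box letters in 0.222%, while both together occurred in 0.0911%. HLA-DRB1, HLA-DMA and HLA-DMB each held both, but the X box letters were chosen after looking at these promoters, so the shares are no test of them. In HLA-DRB1 the X box letters lay at -74 to -66 and the nearest Y box letters downstream at -46 to -42, and in HLA-DMA at -108 to -100 and -79 to -75. In HLA-DMB the X box letters lay at -83 to -75 and the only Y box letters, on the opposite strand and farther from them, at -22 to -18, just after the printed stretch. CD74, HLA-DPB1, HLA-DQA1 and HLA-DQB1 held the Y box letters without these exact X box letters, and neither was found before the start sites of HLA-DPA1, of which RefSeq has a pair. The stretches before both HLA-DPA1 start sites and those of CD74 and HLA-DQB1 overlap annotated exons of the same gene, so they need not be the promoters in use. The spacing of an NF-kB site (GGG and CC with any 5 bases between, both strands), which GC-rich sequence often meets, occurred in 54.4% of all promoters. Promoters of CIITA and HLA-DRA are not shown. These are letter matches in the reference sequence, and binding was not measured. Genes with both sets of letters included a pair that fell and a gene that did not pass the test.

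**Figure D2:**
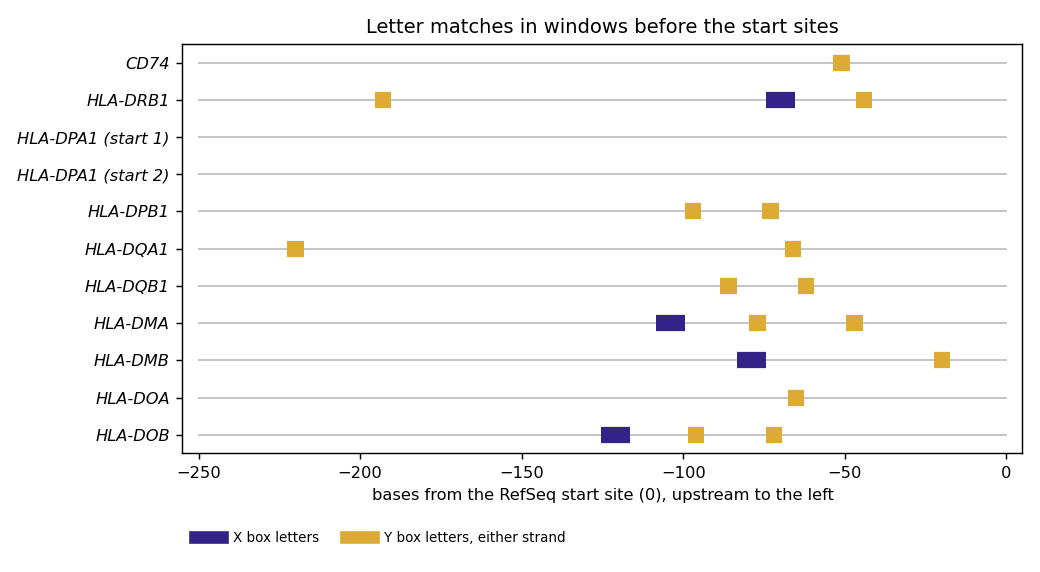
Positions of X box letters (dark blue) and Y box letters (yellow, either strand) in the 250 bases before the RefSeq start sites (0 on the horizontal axis) of the class II genes with a promoter in the table, drawn to scale. X box letters appear in HLA-DRB1, HLA-DMA, HLA-DMB and HLA-DOB, and no match of either kind appears at the start sites of HLA-DPA1.

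CIITA, the master transactivator, was expressed without TNF. Its level was 102, 140, 124.5 and 131 CPM in NT replicates 1 to 4 and 95.7, 108, 110 and 79.1 CPM in TNF-treated replicates 1 to 4. It was lower with TNF in all 4 experiments, but the groups overlapped, since NT replicate 1 was below the 2 highest TNF-treated libraries. The mean went from 124 ± 16.3 to 98.4 ± 14.4 CPM (SD, n = 4), with a log2 fold change of -0.34 ± 0.12 (SE; edgeR, adjusted p = 0.0732). With the experiment date as a block, the change passed the test (log2 fold change -0.34, adjusted p = 0.0313), as it did with DESeq2 (adjusted p = 0.0408). The fourth experiment held the lowest TNF-treated level, and without both of its libraries the log2 fold change was -0.23 (adjusted p = 0.175), and it was -0.11 (adjusted p = 0.508) when NT replicates 2 and 4 and TNF-treated replicate 4, the libraries richest in ribosomal RNA, were left out. The counts are per gene and do not separate the promoters or isoforms of CIITA.

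CD74, which encodes the invariant chain and also serves at the cell surface as a receptor for the cytokine MIF, was by far the most abundant of the genes. It was at 2274, 2118, 1976 and 1821 CPM in NT replicates 1 to 4 and at 3153, 2766, 2946 and 2577 CPM with TNF. Every TNF-treated library was above every NT library. The mean rose from 2047 ± 194 to 2860 ± 247 CPM (SD, n = 4), a log2 fold change of 0.48 ± 0.09 (SE; edgeR, adjusted p = 0.00332). Per kilobase of canonical transcript, CD74 was at 1240 ± 117 CPM per kb in NT cells, rank 59 of 16141 genes with a length, and at 1730 ± 149 with TNF, rank 42.

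HLA-DRA, the alpha chain of HLA-DR, which hardly varies between people, had the opposite change. It was at 360, 406, 346 and 383 CPM in NT replicates 1 to 4 and at 203, 233, 207.5 and 265.5 CPM with TNF. No library of one group reached the range of the other. The mean fell from 374 ± 26.4 to 227 ± 28.7 CPM (SD, n = 4), a log2 fold change of -0.72 ± 0.10 (SE; edgeR, adjusted p = 0.000333).

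HLA-DRB1, the beta chain that pairs with HLA-DRA, was at 140, 114.5, 114.5 and 96.2 CPM in NT cells and at 122, 97.5, 118 and 102 CPM with TNF. The groups overlapped almost fully, and the fold was 0.945 with a 95% interval of 0.790 to 1.13 (adjusted p = 0.680 by edgeR). The direction turned when NT replicate 1, the highest library, was left out (log2 fold change 0.02, adjusted p = 0.931). Reads of the DRB genes can be shared between near-identical copies, and HLA-DRB1 held 56.8% to 59.9% of the counts of HLA-DRB1, HLA-DRB5 and HLA-DRB6 in every library. Summed over these copies, the log2 fold change was -0.06 (adjusted p = 0.747). HLA-DRB5 alone went from 69.0 ± 9.65 to 68.8 ± 7.82 CPM (SD, n = 4).

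HLA-DPA1, the alpha chain of HLA-DP, was at 296, 296, 284 and 282 CPM in NT cells and at 207, 207, 208 and 242 CPM with TNF. The groups did not overlap, and TNF-treated replicate 4 stood above the other 3, which were nearly equal. The mean fell from 290 ± 7.57 to 216 ± 17.4 CPM (SD, n = 4), a log2 fold change of -0.42 ± 0.07 (SE; edgeR, adjusted p = 0.00160).

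HLA-DPB1, its beta chain, was at 59.3, 60.1, 57.8 and 68.7 CPM in NT cells and at 50.6, 49.7, 48.7 and 59.4 CPM with TNF. The fourth experiment was the highest in both groups, so the groups overlapped although HLA-DPB1 was lower in all 4 experiments. The log2 fold change was -0.24 (standard error 0.09, adjusted p = 0.0734 by edgeR), which passed the test with the experiment date as a block (adjusted p = 0.00335) and with TNF-treated replicate 4 left out (log2 fold change -0.31, adjusted p = 0.0111).

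The HLA-DQ genes had the lowest levels of the DR, DP and DQ chains. HLA-DQA1 was at 6.56, 8.31, 5.88 and 10.2 CPM in NT cells and at 10.7, 9.79, 7.20 and 14.4 CPM with TNF. It was higher with TNF in all 4 experiments with overlapping groups, a log2 fold change of 0.44 ± 0.23 (SE; edgeR, adjusted p = 0.198), and passed the test with the experiment date as a block (adjusted p = 0.00594). HLA-DQA1 and its close copy HLA-DQA2 share sequence, and HLA-DQA1 held 37.9% to 49.3% of their joint counts. HLA-DQA2 rose from 9.26 ± 1.26 to 13.2 ± 1.82 CPM (SD, n = 4; log2 fold change 0.50, adjusted p = 0.0201 by edgeR), a call that was lost without NT replicate 2 (adjusted p = 0.0537) or NT replicate 3 (adjusted p = 0.0552). Summed over both copies, the change did not pass the test.

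HLA-DQB1, the beta chain, was at 19.1, 21.5, 16.8 and 20.6 CPM in NT cells and at 17.5, 16.2, 16.8 and 19.9 CPM with TNF. The groups overlapped (log2 fold change -0.15, standard error 0.10, adjusted p = 0.353 by edgeR).

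HLA-DM, which removes CLIP and edits the peptides bound to the other class II molecules, was lower in both of its chains. HLA-DMA was at 44.9, 62.7, 56.2 and 72.3 CPM in NT cells and at 29.0, 31.9, 31.1 and 45.0 CPM with TNF. The ranges overlapped only because TNF-treated replicate 4 (44.98 CPM) was just above NT replicate 1 (44.92 CPM), and HLA-DMA was lower in all 4 experiments. The mean fell from 59.0 ± 11.5 to 34.3 ± 7.25 CPM (SD, n = 4), a log2 fold change of -0.79 ± 0.17 (SE; edgeR, adjusted p = 0.00636).

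HLA-DMB was at 19.6, 21.1, 22.8 and 25.6 CPM in NT cells and at 13.6, 12.0, 12.5 and 16.8 CPM with TNF. Every TNF-treated library was below every NT library. The mean fell from 22.3 ± 2.58 to 13.7 ± 2.14 CPM (SD, n = 4), a log2 fold change of -0.70 ± 0.13 (SE; edgeR, adjusted p = 0.00228).

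Among the TNF-treated libraries, replicate 4 had the highest level of HLA-DRA, HLA-DPA1, HLA-DPB1, HLA-DQA1, HLA-DQB1, HLA-DMA and HLA-DMB and the lowest of CIITA and CD74. It also had more ribosomal, 7SK and 7SL RNA (0.0136% of counts) than the other TNF-treated libraries (0.00268% to 0.00334%). The part of this RNA in the levels was not tested, and the calls of CD74, HLA-DRA, HLA-DPA1, HLA-DMA and HLA-DMB were kept without the fourth experiment, and also when the 3 libraries richest in it were left out.

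HLA-DO, which restrains HLA-DM and is best known from B cells, was followed beside it. HLA-DOA was at 13.7, 12.3, 11.4 and 15.3 CPM in NT cells and at 5.34, 4.82, 4.45 and 4.11 CPM with TNF. It fell with a log2 fold change of -1.49, larger in size than that of any of the 10 genes (standard error 0.13, adjusted p = 1.84e-05 by edgeR). HLA-DOB had 11.2, 14.8, 9.44 and 17.4 expected counts in the NT libraries and 0, 1.05, 1.04 and 1.04 in the TNF-treated libraries, too few to pass the filter. In the 3 of 20 alternatives that admitted HLA-DOB (no filter, and TNF-treated replicates 2 or 4 left out), it was called lower (edgeR, adjusted p = 0.000179 to 0.00361). Without TNF-treated replicates 2 or 4, only its NT counts let it pass the filter, so those calls add nothing to the counts themselves. Among the 5 other class II genes tested, 1 was higher and 1 was lower, against 14.5% and 9.90% of all genes. The other 3 did not pass, and the median log2 fold change was -0.02.

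**Figure D3:**
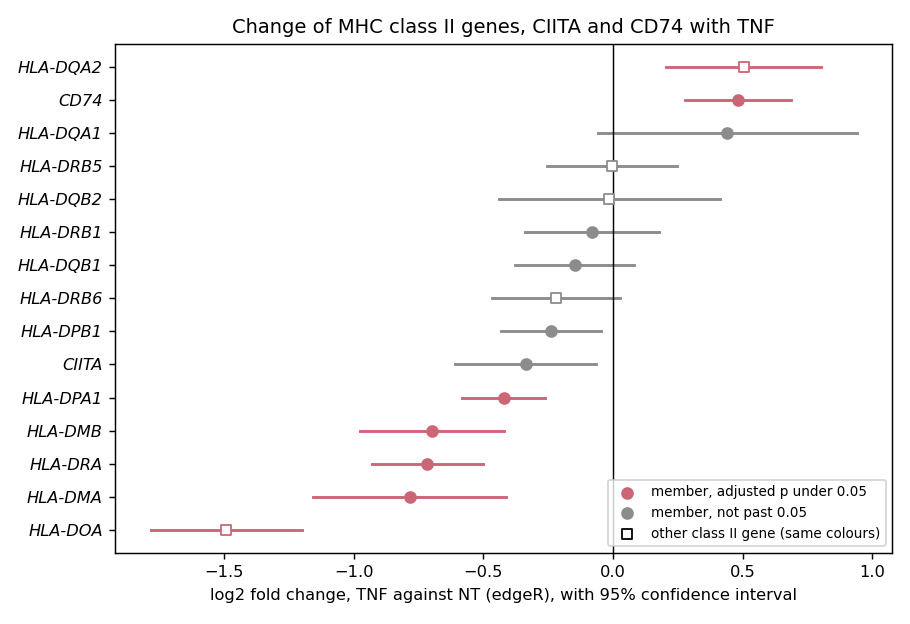
Log2 fold change of TNF-treated against NT cells (edgeR, horizontal axis) with its 95% confidence interval for the 10 genes (circles) and the 5 other class II genes tested (open squares). Red marks an adjusted p under 0.05. CD74 and HLA-DQA2 lie to the right of 0, and HLA-DPA1, HLA-DMB, HLA-DRA, HLA-DMA and HLA-DOA lie to the left.

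The balance between partners was compared as the ratio of counts within each library, in 5 ratios, with an exact two-sided permutation test over 70 assignments whose smallest p is 0.0286. HLA-DRA per CD74 was 0.158, 0.192, 0.175 and 0.210 in NT cells and 0.0645, 0.0844, 0.0705 and 0.103 with TNF. The groups did not overlap, and the log2 difference was -1.21 (exact p = 0.0286, adjusted p = 0.0952). HLA-DRB1 per HLA-DRA was 0.251 to 0.389 in NT cells and 0.384 to 0.6 with TNF, a log2 difference of 0.65 (exact p = 0.0571, adjusted p = 0.0952). Between libraries of the same experiment, HLA-DRB1 per HLA-DRA was higher with TNF in 4 of 4 experiments, by 0.57 to 0.79 on the log2 scale, and HLA-DRA per CD74 was lower in 4 of 4, with differences of -1.31 to -1.03.

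HLA-DQB1 per HLA-DQA1 went the other way, from 2.01 to 2.91 in NT cells to 1.38 to 2.33 with TNF (log2 difference -0.58, exact p = 0.0571, adjusted p = 0.0952). HLA-DPB1 per HLA-DPA1 was 0.201 to 0.244 and then 0.234 to 0.245 (log2 difference 0.18, exact p = 0.0857, adjusted p = 0.107). The HLA-DM chains had the smallest difference of the 5, with HLA-DMB per HLA-DMA at 0.337 to 0.436 in NT cells and 0.373 to 0.469 with TNF (log2 difference 0.08, exact p = 0.514, adjusted p = 0.514). By experiment, HLA-DQB1 per HLA-DQA1 was lower in 4 of 4, HLA-DPB1 per HLA-DPA1 higher in 4 of 4 and HLA-DMB per HLA-DMA higher in 3 of 4. For HLA-DPB1 per HLA-DPA1 the log2 difference was 0.29, 0.24 and 0.20 in experiments 1 to 3 but 0.01 in the fourth, which was nearly unchanged. Adjusted over 5 ratios, a value under 0.05 would need at least 3 of them at the smallest p, so the adjusted values could hardly pass in this design. An exact paired test that flips the signs of the differences of 4 experiments cannot go below 0.125.

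Levels of different genes were compared per kilobase of canonical transcript. In NT cells the order from the highest was CD74, HLA-DRA at 303 ± 21.4, HLA-DPA1 at 170 ± 4.44, HLA-DRB1 at 95.1 ± 14.7 and HLA-DMA at 54.0 ± 10.5 CPM per kb (SD, n = 4). HLA-DMB at 16.5 ± 1.92, HLA-DPB1 at 15.4 ± 1.23 and HLA-DQB1 at 12.1 ± 1.27 followed, the first 2 of them within each other's spread. The canonical HLA-DPB1 transcript has 3991 bases, against 1093 to 1704 for the other HLA genes among the 10. Its place in the order, also with TNF, thus depends on the transcript chosen. CIITA at 7.74 ± 1.01 and HLA-DQA1 at 4.92 ± 1.24 were lowest, where the canonical CIITA transcript of 16061 bases has a long last exon, and with a coding transcript of 4657 bases CIITA would be at 26.7 ± 3.49.

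With TNF the order changed at its lower end, with HLA-DMB at 10.2 ± 1.58 CPM per kb below HLA-DPB1 at 13.1 ± 1.24 and HLA-DQB1 at 11 ± 1.01, where neighbours in the order were within or near each other's spread. HLA-DQA1 was at 6.69 ± 1.89, and CIITA at 6.12 ± 0.896 or, with the transcript of 4657 bases, at 21.1 ± 3.09. HLA-DRA fell to 184 ± 23.2 and remained above HLA-DPA1 at 127 ± 10.2. CD74 made up 61.7% to 67.2% of the summed level per kilobase of the 10 genes in NT libraries and 74.4% to 80.6% in TNF-treated libraries. Against the summed alpha chains HLA-DRA, HLA-DPA1 and HLA-DQA1, the ratio of CD74 per kilobase was 2.28 to 2.93 in NT cells and 4.26 to 6.51 with TNF.

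Genes for the proteins on which CIITA docks included some that rose and some that fell. Of 13 genes for RFX, CREB and NF-Y subunits and coactivators, 1 rose, 3 fell and 9 did not pass, with a median log2 fold change of -0.04. Among all genes 14.5% rose and 9.90% fell. With the experiment date as a block, 2 were higher and 5 lower, against 21.3% and 18.2% of all genes. CARM1, an arginine methyltransferase, fell from 240 ± 15.5 to 178 ± 4.61 CPM (SD, n = 4; log2 fold change -0.43, adjusted p = 0.000891 by edgeR). The acetyltransferase gene KAT2B changed by -0.53 on the log2 scale (edgeR, adjusted p = 0.0288), NFYB, an NF-Y subunit, by -0.32 (adjusted p = 0.0186) and CREB1 by 0.41 (adjusted p = 0.0201), and each of these 3 calls was lost in at least 1 of the fits that left out a single library (adjusted p up to 0.0805, 0.059 and 0.0661). RFX5, the DNA-binding subunit of RFX, went from 122 ± 10.5 to 140 ± 17.4 CPM (SD, n = 4; adjusted p = 0.179 by edgeR, and 0.0107 with the block).

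Genes that induce or restrain CIITA included larger changes. Of 15 tested, 5 rose and 0 fell, against 14.5% and 9.90% of all genes, with a median log2 fold change of 0.20. With the block, 6 rose and 2 fell, against 21.3% and 18.2%. PRDM1, which encodes BLIMP-1, a repressor of CIITA in plasma cells, was at 2.91, 1.503, 1.23 and 0.603 CPM in NT cells and at 66.8, 70.1, 54.6 and 44.2 CPM with TNF. The groups were far apart, with a log2 fold change of 5.17 ± 0.36 (SE; edgeR, adjusted p = 7.29e-06). IRF1, an activator of the interferon-inducible CIITA promoter, was at 11.2, 13.8, 13.6 and 15.1 CPM in NT cells and at 41.9, 55.6, 50.8 and 66.7 CPM with TNF.

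The groups of IRF1 did not overlap (log2 fold change 2.002, standard error 0.15, adjusted p = 5.46e-06 by edgeR). IFNGR2, a chain of the interferon-gamma receptor, changed by 0.81 on the log2 scale (edgeR, adjusted p = 3.06e-05) and IRF2 by 0.76 (adjusted p = 0.000503). IFNG itself had 0 counts in all 8 libraries.

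Among 12 genes that prepare class II peptides and degrade the invariant chain, 5 rose and 0 fell, against 14.5% and 9.90% of all genes. Their median log2 fold change was 0.20. With the block, 6 rose and 2 fell, against 21.3% and 18.2%. CTSS, the cathepsin that makes the last cuts in the invariant chain of antigen-presenting cells, was at 1.03, 0.574, 0.472 and 0.444 CPM in NT cells and at 154, 228, 145 and 197 CPM with TNF. Its counts were low in NT cells (14 to 47.65 expected counts per library), and the groups were far apart (log2 fold change 8.10, standard error 0.26, adjusted p = 3.87e-08 by edgeR). CTSL, another cathepsin of the list, was at 64.9 ± 8.53 and 69.8 ± 8.79 CPM (SD, n = 4; adjusted p = 0.569 by edgeR).

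IFI30, the thiol reductase GILT of the endosome, changed by 0.76 on the log2 scale (edgeR, adjusted p = 0.00116), the asparaginyl endopeptidase gene LGMN by 0.64 (adjusted p = 0.00468) and CTSB by 0.58 (adjusted p = 0.00829). SPPL2A, whose protease clears the remaining membrane stub of CD74, also rose (log2 fold change 0.56, adjusted p = 8.42e-05 by edgeR).

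Of 9 genes for class II turnover and trafficking, 1 rose and 0 fell, against 14.5% and 9.90% of all genes. With the block, 3 rose and 1 fell, against 21.3% and 18.2%. CD82, a tetraspanin of the class II compartment, went from 6.43 ± 2.11 to 107 ± 39.7 CPM (SD, n = 4; log2 fold change 4.06, adjusted p = 1.30e-05 by edgeR). The ubiquitin ligase gene MARCHF1, which drives class II from the surface, was at 0.710 ± 0.199 and 0.380 ± 0.0665 CPM (SD, n = 4), a log2 difference of -0.89 (edgeR, adjusted p = 0.0554, and 0.0295 with the block).

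Among 3 tested genes of the MIF receptor in which CD74 takes part, CD44, its signalling partner, was at 619, 628, 640 and 656 CPM in NT cells and at 1038, 1079, 1069 and 1017 CPM with TNF. The groups were well apart (log2 fold change 0.72, standard error 0.06, adjusted p = 1.65e-05 by edgeR). The ligand MIF was at 240 ± 14.3 and 266 ± 16.6 CPM (SD, n = 4; adjusted p = 0.180 by edgeR), and the chemokine receptor CXCR4, another partner, had 0 CPM in both groups.

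The genes of MHC class I and its loading, which present peptides from the cytosol to CD8+ T cells, mostly rose. Of 15 tested, 13 rose and 0 fell, against 14.5% and 9.90% of all genes, with a median log2 fold change of 0.87. TAPBP (tapasin, of the peptide-loading complex) had a log2 fold change of 1.87, HLA-B of 1.14, and the immunoproteasome subunit genes PSMB10 and PSMB9 of 1.34 and 1.02 (adjusted p at most 0.00107 by edgeR). NLRC5, the class I counterpart of CIITA, rose from 6.53 ± 0.753 to 9.32 ± 1.05 CPM (SD, n = 4; log2 fold change 0.51, adjusted p = 0.0157 by edgeR).

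**Figure D4:**
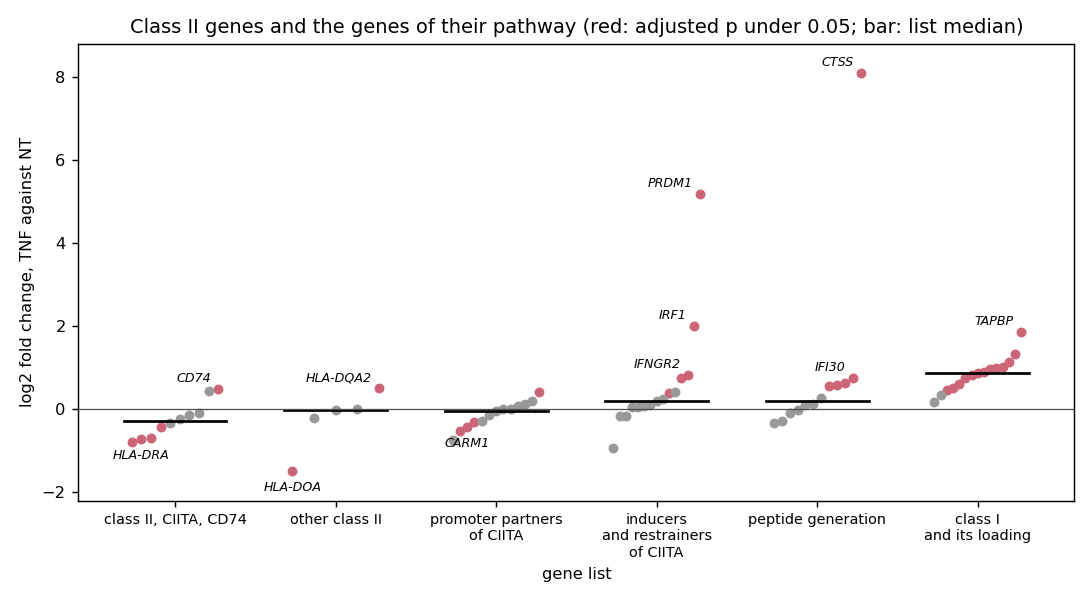
Log2 fold change of TNF-treated against NT cells (edgeR, vertical axis) for the tested genes of 6 lists, each point a gene in order of its change. Red marks an adjusted p under 0.05, grey marks genes that did not pass, and bars are list medians. The median lies at -0.29 for the class II genes with CIITA and CD74 and at 0.87 for class I, and CTSS and PRDM1 stand highest.

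Class II molecules act together with adhesion and costimulatory ligands. Of 7 such genes tested, with receptors of class II among them, 5 rose and 0 fell, against 14.5% and 9.90% of all genes. Their median log2 fold change was 1.06. ICAM1, an adhesion ligand of T cells, went from 40.4 ± 4.53 to 569 ± 45.8 CPM (SD, n = 4; log2 fold change 3.81, adjusted p = 8.37e-09 by edgeR). The ligands of PD-1 were lower in level, PDCD1LG2 at 0.111 ± 0.0804 and 2.80 ± 1.02 CPM and CD274 at 1.34 ± 0.309 and 3.93 ± 0.820 CPM (SD, n = 4; log2 fold changes 4.57 and 1.54, adjusted p at most 0.000553 by edgeR). PDCD1LG2 had 0 to 9 counts in the NT libraries, so it passed the filter only through its TNF-treated libraries. CD40 changed by 1.06 on the log2 scale (edgeR, adjusted p = 0.00108), and the costimulators CD80 and CD86 were too low to be tested.

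Total counts ran from 30989787 to 44373296 per library, and 28855 genes had 0 counts in all 8. The label of a melanoma line was checked on markers: SOX10 was at 1025 CPM in NT and 1177 CPM in TNF-treated cells, while the pigment genes PMEL and MLANA were near 0. Of the 10 melanocyte and melanoma markers 8 were tested, of which MIA rose from 85.4 ± 10.2 to 112 ± 15.8 CPM (adjusted p = 0.0322 by edgeR), S100B fell from 17.3 ± 3.93 to 3.05 ± 0.421 CPM (SD, n = 4; adjusted p = 6.77e-06 by edgeR) and 6 did not pass. The B cell markers MS4A1 and PAX5, the leukocyte marker CD53 and the dendritic markers FLT3, CLEC9A and CD1C were at 0. Summed monocyte, macrophage and dendritic cell markers were at 21.9 to 27.9 CPM in NT and 44.7 to 74.4 CPM in TNF-treated libraries, most of it CD68 (23.7 and 56.9 CPM), a lysosomal glycoprotein gene. Of that list 2 of the 3 genes with enough counts rose, CD68 and CSF1R (0.146 and 0.886 CPM). CSF1R had 2 to 8 counts in the NT libraries, so it passed the filter only through its TNF-treated libraries. Summed leukocyte markers were at 17.4 to 22.3 and 24.4 to 30.2 CPM, with PTPRC, which encodes CD45, near 0, and endothelial markers at 0.825 to 1.80 and 2.12 to 3.43 CPM. Fibroblast markers were at 11.7 to 21.5 and 12.5 to 21.9 CPM. Among tested genes, 1 of 2 leukocyte (LAPTM5), 1 of 2 endothelial (PECAM1) and 1 of 4 fibroblast markers (DCN) rose, and 0 fell (edgeR, adjusted p = 0.0115, 6.90e-05 and 0.0167). PECAM1, with 6 to 21 expected counts in the NT libraries, also passed the filter only through its TNF-treated libraries. The part of other cell types in the results was not tested.

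Likeness of pattern was described by the root mean square difference between log2 CPM deviations from the NT mean over the 8 libraries, among 12352 genes. Nearest to CIITA were TLR4 (0.0566), TWSG1 (0.0709), MSH6 (0.0735), BRCC3 (0.082) and EFNB2 (0.0824). Nearest to CD74 were GPX4 (0.0493), the melanoma proteoglycan gene CSPG4 (0.0553), MXD4 (0.0574), RPS6KA3 (0.0604) and CAPN1 (0.0636). Nearest to HLA-DRA were SPNS2 (0.0836), AMER1 (0.0892), DZIP3 (0.1), SLC47A1 (0.101) and CD302 (0.109). The genes described here were left out of this comparison beforehand, so they could not appear, and no gene of the other class II lists was among the nearest.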

How the data were processed

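Stranded libraries of polyadenylated RNA were aligned by the authors with bowtie2 to the GRCh38 transcriptome, and RSEM 1.2.25 gave expected counts, which the authors deposited per gene without normalization, with a column for each library. For bowtie2 no version is given, nor for the reads any filter, in the labels or methods. Tables deposited per sample were not used, because for NT samples their dates differ from the titles, whereas the columns of the series table match the titles.

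Rounding the expected counts to whole numbers changed the total by 0.000138%. The low-count filter of edgeR (minimum count 10, total 15) came first, then TMM factors, then the quasi-likelihood test of edgeR 4.0.16 with robust fitting and no covariate besides treatment. P-values were adjusted by Benjamini-Hochberg across the 16186 genes tested, at a threshold of 0.05. Log2 CPM used a prior count of 2, and ratios of counts a prior of 0.5. The p-values rest on the spread between 4 independent experiments. Same-date libraries deviated together from their group means (correlations 0.351, 0.169, 0.238 and 0.46), and the titles give both the same date, so the dates pair the libraries, and an alternative fit had the date as a replicate block. No library repeated another, since the chi-square per degree of freedom within a group was at least 12.2. Other alternatives were DESeq2 1.42.0, limma voom 3.58.1, RLE and upper-quartile factors, library totals, other filters, left-out libraries and a threshold of 0.01. Chosen after seeing the data were a fit with near-identical HLA copies summed and a further block. In that block each NT library took the title date of the record under which its per-sample table was filed. Tests were run in R 4.3.3 and checked on simulated counts. Lengths come from GENCODE release 44 and promoters from RefSeq.

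The members and lists were chosen with earlier results of these data known. Named genes are the 10 members, up to 4 genes per list with the largest change past the threshold, and, for CIITA, CD74 and HLA-DRA, the 5 genes nearest in pattern. HLA-DRB5, RFX5, MARCHF1, CTSL, SPPL2A, MIF, NLRC5, HLA-DOB, the cell type markers and the genes at or near 0 were named after their values were seen. Some genes of the lists are counted but not reported here by name.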

Additional observations from a re-analysis of the deposited data

Results flagged for a closer look

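HLA-DPA1 in TNF-treated replicate 4 was far from the other libraries of its group, at a log2 CPM of 7.92 where the other 3 lay between 7.694 and 7.701. Of 20 groups of 4 libraries looked at (10 genes in NT and in TNF-treated cells), this was the 1 whose end library stood apart by Dixon's criterion, and chance alone would give about 1. Without this library the log2 fold change of HLA-DPA1 was -0.48, and its call was kept.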

How the results depend on the processing

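CD74, HLA-DRA, HLA-DPA1, HLA-DMA and HLA-DMB kept their direction and their call in all 20 alternatives, with log2 fold changes of 0.40 to 0.54, -0.80 to -0.67, -0.51 to -0.40, -0.94 to -0.68 and -0.81 to -0.63. With the experiment date as a replicate block, 2 of the 10 genes were higher, with HLA-DQA1 added, and 6 were lower, with CIITA and HLA-DPB1 added, and no other call among the 10 changed. CIITA and HLA-DPB1 each passed in 6 of 20 alternatives, and both did so with upper-quartile factors, library totals and DESeq2. CIITA also passed without a filter and without NT replicate 1 (-0.42), and HLA-DPB1 without TNF-treated replicate 4 (-0.31) and without the fourth experiment (-0.26). With single libraries left out, HLA-DRB1 ran from -0.17 to 0.01904 (reversed without NT replicate 1) and HLA-DRB5 from -0.08001 to 0.08227 (reversed without NT replicates 1 or 3 or TNF-treated replicates 2 or 4), and neither passed the test in any alternative. The cause was not tested. The 5 ratios kept their direction in every setting run, while their p-values, bounded by the design, bear on no stability, and the exact paired test could not give a p below 0.125. The tables filed per NT record carry another date than the record's title. In a further block (chosen after seeing the data), each NT library took the title date of the record under which its per-sample table was filed. Deviations of libraries paired this way correlated at -0.40 to -0.07. CIITA (edgeR, adjusted p = 0.0511), HLA-DPB1 (0.186), HLA-DQA1 (0.343), RFX5 (0.307) and MARCHF1 (0.151) did not pass. HLA-DPB1 and HLA-DMA were lower, and HLA-DQA1 higher, in 3 of 4 of these pairs. In that block HLA-DQA2 (0.052), KAT2B (0.0788), CREB1 (0.0606) and NFYB (0.0851) also lost their calls. Over all genes, the block on the dates of the series table called 3451 higher and 2946 lower, against 2345 and 1603 without a block. The block by the records of the per-sample tables called 1557 higher and 801 lower. Low counts, as for HLA-DQA1, and reads shared between HLA copies limit the precision, and the reference transcriptome need not match the HLA alleles of A375.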
